A study of Mus musculus with 16 samples.

Results

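The 9 genes described here were chosen as granulosa cell markers and genes regulated by follicle-stimulating hormone (FSH): Slc18a2, Nap1l5, Gatm, Prkar2b, Grb14, Sgk1, Snap25, Epha5 and Akap7. They were chosen with earlier results of these data known. Every probe set annotated to one of these symbols alone was taken, which gave 17 probe sets of 45101 on the array. Of these, 10 probe sets passed the filter on low signals, and 8 of the 9 genes were among the 12172 genes tested. Epha5 was not tested, because all 4 of its probe sets lay below the filter.

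RNA came from cultured ovarian follicles of C57BL/6Tac mice, aged 8 weeks in the sample labels and up to 8 weeks in the design text, and was measured on 16 arrays. The follicles, from the preantral to the small antral stage, of 8 mice were pooled for each experiment and cultured in single drops without (0 ng/ml, control) or with anti-Müllerian hormone (AMH), added as recombinant protein at 50 ng/ml. They were collected after 12 h or 24 h, which gave 4 groups of 4 arrays (control 12 h, AMH 12 h, control 24 h and AMH 24 h), each array from 6 to 9 follicles. Medium of all 4 groups, controls included, held 80 IU/L FSH and 10 IU/L luteinizing hormone (LH), so the series holds no comparison of follicles with and without FSH, and the name "FSH-regulated" could not be checked. Follicles of 1 pool went into the AMH and the control culture of a pair. The labels do not say whether the 12 h and 24 h cultures shared pools.

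FSH binds its receptor on granulosa cells, the somatic cells that surround the oocyte, and raises cyclic AMP, which activates protein kinase A (PKA). PKA is held inactive by regulatory subunits, of which Prkar2b encodes one, and is tethered to sites in the cell by anchoring proteins, of which Akap7 encodes one. PKA phosphorylates CREB, a transcription factor that binds the palindrome TGACGTCA and its shorter part TGACG. AMH, a TGF-β family ligand, is made by granulosa cells of growing follicles and is known to lower the follicle's response to FSH.

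The windows around the annotated starts are shown for members whose window holds TGACG, with each TGACG in capitals, printed as CGTCA where it lies on the opposite strand. They were read from RefSeq on GRCm38.p6 and run from 250 bases before to 50 bases after the start, on the strand of the gene. Slc18a2 lies at chr19:59260628-59260927 on the plus strand, Nap1l5 at chr6:58907077-58907376 on the minus strand, and the second of 6 Sgk1 windows at chr10:21978422-21978721 on the plus strand.
Slc18a2: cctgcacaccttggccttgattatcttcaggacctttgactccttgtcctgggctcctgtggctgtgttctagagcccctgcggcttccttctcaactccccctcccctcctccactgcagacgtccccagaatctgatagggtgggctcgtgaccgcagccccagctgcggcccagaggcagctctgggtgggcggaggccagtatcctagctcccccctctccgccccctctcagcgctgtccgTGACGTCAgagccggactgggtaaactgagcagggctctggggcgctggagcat
Nap1l5: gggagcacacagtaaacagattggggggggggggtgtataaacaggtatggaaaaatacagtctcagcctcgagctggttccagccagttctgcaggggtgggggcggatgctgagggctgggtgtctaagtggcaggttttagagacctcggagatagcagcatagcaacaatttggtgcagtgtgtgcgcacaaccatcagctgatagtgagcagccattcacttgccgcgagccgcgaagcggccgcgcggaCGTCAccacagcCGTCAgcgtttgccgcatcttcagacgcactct
Sgk1: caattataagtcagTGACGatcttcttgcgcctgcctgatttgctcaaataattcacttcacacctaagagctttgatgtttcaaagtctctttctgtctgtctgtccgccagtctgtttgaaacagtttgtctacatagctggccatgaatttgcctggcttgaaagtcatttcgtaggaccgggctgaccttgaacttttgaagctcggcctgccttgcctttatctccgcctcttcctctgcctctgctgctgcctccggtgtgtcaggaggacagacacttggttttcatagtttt

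Windows were found for 8 of the 9 genes, 15 in all. Slc18a2 alone of these genes held the full palindrome TGACGTCA, which began 4 bases before the start and ran across it. Of 32851 RefSeq windows of the same length, 1.79% held it on either strand. The shorter TGACG, which lies within the palindrome, was in 3 of the 15 windows (20%) against 20.8% of all windows. Nap1l5 held it 2 times on the opposite strand, from bases 6 and 18 after the start, and the second Sgk1 window held it from 236 bases before the start. TGACG was in no window of Prkar2b, Akap7, Grb14, Gatm or Epha5. A motif of another kind, AAGGTCA, is a half-site of the nuclear receptors that drive steroidogenic genes and was in 2 Sgk1 windows and in 4.72% of all windows. GGGCGG, the core of an Sp1 box, was in 9 of the 15 windows against 35.7% of all, and TATAAA in 3 against 13.6%. GGGCGG and TATAAA were also searched on both strands. A match of letters is a description and not a binding site.

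The pooled follicles held several cell types. The mean log2 signal of 14 measured granulosa genes (of 16 listed, led by Foxl2, Amhr2 and Fshr, which were measured) ranged from 7.56 to 9.78 over the 16 arrays, a 4.65-fold range. That of 23 oocyte genes ranged from 6.63 to 9.04, or 5.33-fold, so the labelled tissue carried the markers of both follicle cell types. Means of 10 stroma and smooth muscle genes ranged 4.09-fold, of 9 immune genes 3.96-fold, of 11 endothelial genes 3.84-fold, of 10 surface epithelium genes 3.51-fold and of 6 theca genes 2.96-fold. Only 3 of 14 neuronal and 1 of 6 red blood cell genes passed the filter. In such bulk samples, fewer cells of a type and less RNA per cell cannot be told apart. Arrays of 1 group correlated at 0.923 to 0.977 in log2 signal, and with 4 arrays in a group precision is limited.

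The main result over the 9 genes was a change with time in culture and none with AMH that passed the test. From 12 h to 24 h, Slc18a2 and Akap7 rose in both arms, and Nap1l5 and Prkar2b rose in the AMH arm. The Prkar2b call is that of its brightest probe set, and its other probe sets, in a fit of every probe set, passed in both arms. Snap25 was called lower in controls, but it had entered the test only through its 1 high group, control 12 h, so this call is given as a description only. No tested member differed between AMH and control at 12 h or at 24 h at an adjusted p below 0.05 (limma, Benjamini-Hochberg over 12172 genes). Changes are differences of mean log2(signal + 1.46), with the standard error (SE) of the moderated fit. Signals are linear intensities, and signals of different genes are not compared with each other.

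**Figure D1:**
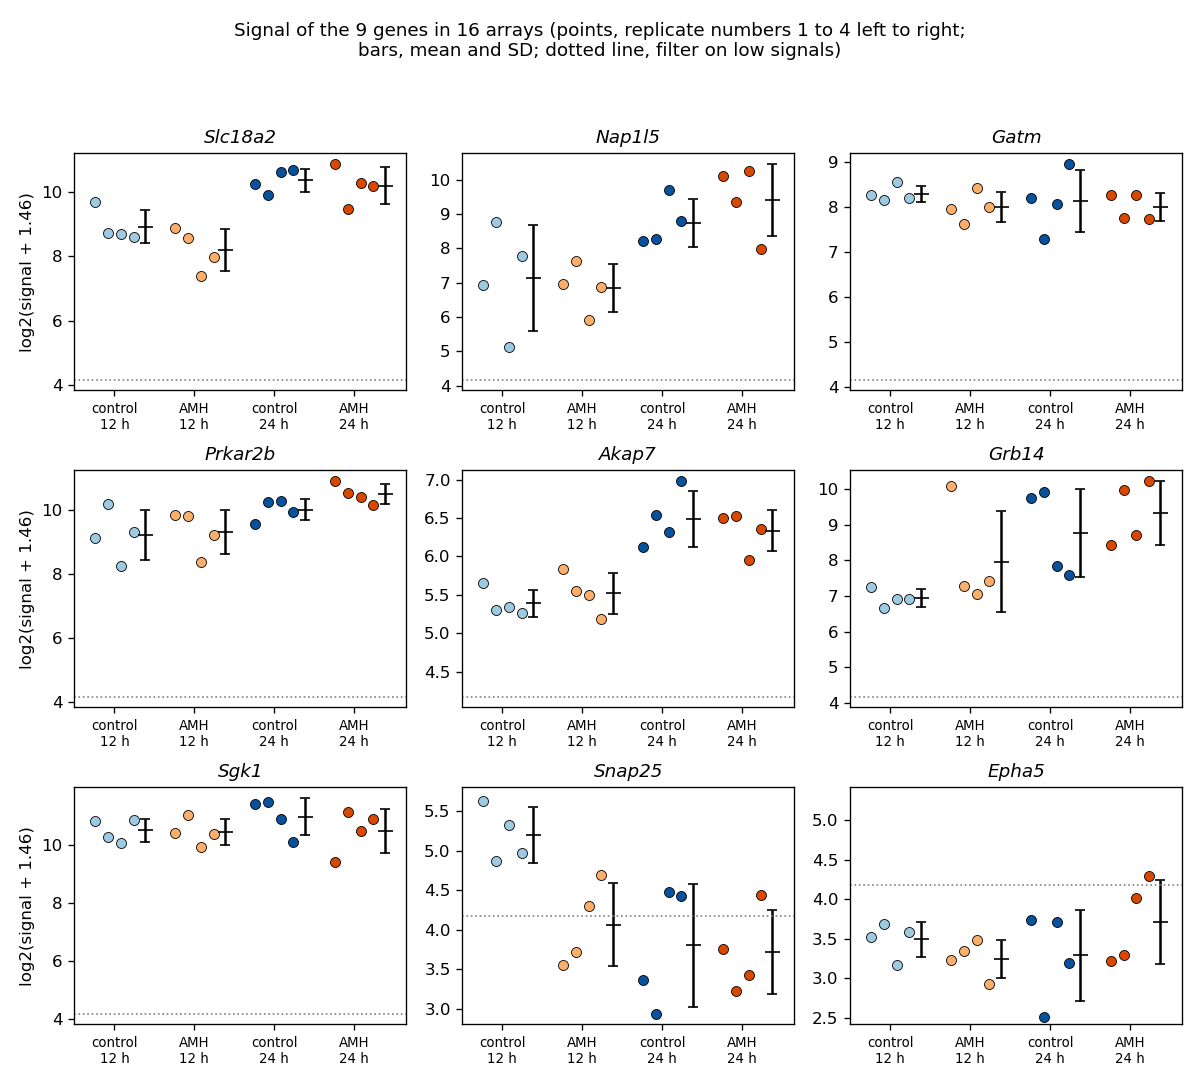
Log2(signal + 1.46) of each gene (the probe set with the highest mean) in the 16 arrays, by treatment and time; points are arrays, bars the mean and SD of 4, and the dotted line the filter at 4.18. The 24 h arrays of Slc18a2 all lie above the 12 h arrays of their arm, while Gatm and Sgk1 overlap in every comparison and Epha5 lies near or below the filter.

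Slc18a2 encodes the vesicular monoamine transporter VMAT2, which loads monoamines into secretory vesicles. Its signal in controls at 12 h was 816, 417, 407 and 382 in replicates 1 to 4, and with AMH at 12 h it was 463, 380, 165 and 249. At 24 h it was 1204, 955, 1558 and 1617 in controls and 1851, 702, 1225 and 1147 with AMH. All 24 h arrays lay above all 12 h arrays of the same arm, and control replicate 1 stood above the other 12 h controls. On the log2 scale the means were 8.91 ± 0.51 (SD, n = 4) and 10.35 ± 0.35 in controls at 12 h and 24 h. With AMH they were 8.20 ± 0.66 and 10.18 ± 0.57. The rise was 1.44 (SE 0.33, 95% interval 0.74 to 2.14, adjusted p = 0.00698), or 2.71-fold, in controls and 1.99 (SE 0.33, interval 1.29 to 2.69, adjusted p = 0.00198), or 3.97-fold, with AMH. Both passed in every alternative run, 17 in controls and 18 with AMH.

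Across all genes, 9.96% were called higher and 9.19% lower at 24 h in controls, and 4.34% higher and 3.94% lower with AMH. Of the 8 tested members, 2 were called higher in controls and 4 higher and 0 lower with AMH. The 1 called lower in controls was Snap25, which passed the filter only through control 12 h. Arrays of the 2 times did not overlap, in either direction, for 22.3% of all genes in controls and 15.1% with AMH. Among the 8 members this was so for 4 in each arm, with Snap25 among those in controls. The median change of the 8, Snap25 included, was 0.94 in controls and 1.00 with AMH, beside -0.01 and -0.02 over all genes tested. Because the members were chosen with earlier results of these data known, these counts and medians are a description only. The arms share no arrays in these 2 comparisons, but arms of 1 time share pools. Centring each array on its median shifted the median of all genes by -0.19 in the control comparison and the share of calls that were higher from 52.0% to 24.6%. Under it Slc18a2 and Akap7 stayed called higher in controls, and with AMH Slc18a2 and Nap1l5 stayed called.

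Akap7 encodes a small anchoring protein that binds PKA regulatory subunits at membranes. Its signal in controls was 48.9, 37.9, 39.0 and 36.9 at 12 h and 68.0, 91.1, 78.6 and 125 at 24 h. With AMH it was 55.9, 45.4, 43.7 and 34.8 at 12 h and 89.3, 90.7, 60.5 and 80.7 at 24 h. In both arms every 24 h array was above every 12 h array. Akap7 rose by 1.10 (SE 0.21, interval 0.65 to 1.55, adjusted p = 0.00238), or 2.14-fold, in controls and by 0.82 (SE 0.21, interval 0.37 to 1.27, adjusted p = 0.0262), or 1.76-fold, with AMH. The AMH-arm call ended when any single array but 3 (AMH 12 h replicates 1 and 2 and AMH 24 h replicate 3) was left out, with adjusted p between 0.0586 and 0.0838. It ended too under median centring (0.0745). In all, 10 of 17 alternatives kept the call. A second Akap7 probe set lay far below the filter, at a mean signal of 4.72, and correlated with the first at 0.473 over 16 arrays.

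Nap1l5 encodes a member of the nucleosome assembly protein family and is an imprinted gene expressed from the paternal allele. RefSeq places it inside Herc3, and whether its probe set separates the transcripts of both was not tested. Its signal in controls was 121, 433, 33.2 and 219 at 12 h and 294, 308, 833 and 449 at 24 h. The AMH arrays gave 123, 196, 58.8 and 117 at 12 h and 1099, 649, 1224 and 250 at 24 h. Control replicate 2 at 12 h lay above 2 of the 24 h controls, whereas with AMH the groups did not overlap. The rise with AMH was 2.58 (SE 0.64, interval 1.21 to 3.94, adjusted p = 0.0217), or 5.96-fold, the largest change of the 8 tested members. In controls the difference was 1.60 (SE 0.64, interval 0.24 to 2.96, adjusted p = 0.0907) and did not pass. The control value passed when control 12 h replicate 2 was left out (2.14, adjusted p = 0.030). The AMH-arm call ended without AMH 12 h replicate 3, AMH 24 h replicate 1 or AMH 24 h replicate 3 (adjusted p 0.0728, 0.057 and 0.0643), and without both AMH arrays of number 1 (0.0841).

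Prkar2b encodes the type II beta regulatory subunit of PKA, a protein long known to accumulate in granulosa cells under FSH. The signal of its brightest probe set in controls was 558, 1157, 305 and 639 at 12 h and 758, 1205, 1250 and 976 at 24 h. In the AMH arm it was 918, 893, 333 and 592 at 12 h and 1915, 1479, 1347 and 1147 at 24 h. The control groups overlapped through 12 h replicate 2, and the AMH groups did not. Prkar2b rose by 1.19 (SE 0.35, interval 0.45 to 1.93, adjusted p = 0.0456), or 2.28-fold, with AMH. In controls the difference was 0.79 (SE 0.35, interval 0.05 to 1.53, adjusted p = 0.124). The AMH-arm call was at the edge of the threshold: it ended when AMH 12 h replicate 3 or 4 or any of the 4 AMH 24 h arrays was left out (adjusted p between 0.0595 and 0.146). Without a filter on low signals (adjusted p 0.0563) and under median centring (0.0768) it ended as well. In all, 9 of 18 alternatives kept the call.

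The 2 other Prkar2b probe sets moved more. They were fitted with every probe set of the array, 45037 without controls, of which 4.86% were called higher at 24 h in controls and 1.67% with AMH. One rose by 1.10 (SE 0.29, adjusted p = 0.0266) in controls and 1.62 (SE 0.29, adjusted p = 0.00513) with AMH. The other rose by 1.19 (SE 0.30, adjusted p = 0.0198) and 1.77 (SE 0.30, adjusted p = 0.00334). The brightest probe set passed in neither arm in that fit (adjusted p = 0.173 and 0.067). The 3 probe sets correlated with each other at 0.888 to 0.991 over the 16 arrays. In the fit of 12172 genes with the mean over probe sets in place of the brightest, the control difference was 1.02 and passed (adjusted p = 0.0287).

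**Figure D2:**
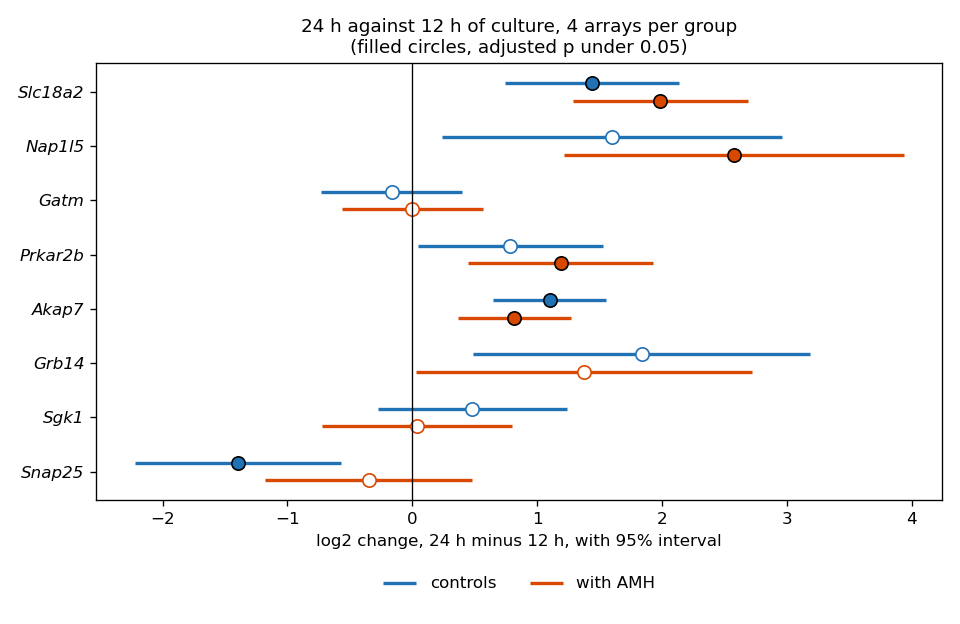
Log2 change from 12 h to 24 h of culture in the 8 tested genes, in controls and with AMH, with the 95% interval; filled circles passed an adjusted p of 0.05. Slc18a2 (1.44 and 1.99) and Akap7 (1.10 and 0.82) passed in both arms. Nap1l5 and Prkar2b, the latter by its brightest probe set, passed with AMH. Snap25 in controls (-1.40) had passed the filter only through its high group.

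Of 9 PKA subunits and inhibitors, 8 were measured, and 2 other regulatory subunits fell in both arms. Prkar1b, the type I beta regulatory subunit, fell by 1.13 (SE 0.16, adjusted p = 0.000363) in controls and by 0.88 (SE 0.16, adjusted p = 0.00384) with AMH. Prkar2a, the type II alpha subunit, fell by 0.66 (SE 0.18, adjusted p = 0.0151) and 0.69 (SE 0.18, adjusted p = 0.0235). In both arms all 24 h arrays of Prkar1b and of Prkar2a lay below all 12 h arrays. The changes of Prkar1a, the type I alpha subunit, were -0.06 (SE 0.09) and 0.10 (SE 0.09), and those of the catalytic subunit Prkacb 0.33 (SE 0.11, adjusted p = 0.0522) and 0.30 (SE 0.11, adjusted p = 0.114), and none passed. In the list as a whole, 0 were called higher and 2 lower in controls, and 1, Prkar2b, higher and 2 lower with AMH. Its median change was -0.09 and -0.01.

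**Figure D3:**
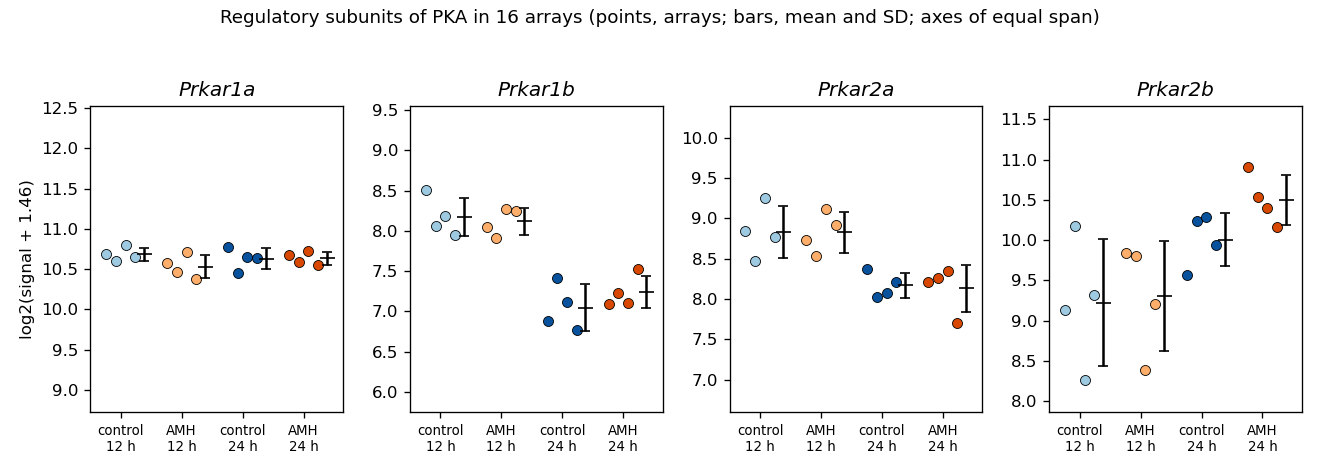
Log2(signal + 1.46) of the 4 regulatory subunits of PKA in each array, by treatment and time; bars are the mean and SD of 4 arrays and the vertical axes have equal span. Prkar1b and Prkar2a were lower at 24 h in both arms, Prkar2b was higher with AMH at 24 h than at 12 h, and Prkar1a differed little (-0.06 and 0.10).

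Of 19 A-kinase anchoring proteins, 15 were measured, and 1, Akap7, was called higher in each arm. Over all genes 9.96% were called higher in controls and 4.34% with AMH. In controls 4 were called lower: Ezr (-0.86, SE 0.17, adjusted p = 0.00238), the membrane-to-actin linker ezrin; Msn (-0.49, SE 0.17, adjusted p = 0.0492), the related moesin; Akap2 (-0.52, SE 0.15, adjusted p = 0.0219) and Akap8 (-0.31, SE 0.10, adjusted p = 0.040). With AMH 0 were called lower. The shares called lower over all genes were 9.19% in controls and 3.94% with AMH. The difference between arms was not tested for this list as a whole.

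Genes known to be induced by FSH in granulosa cells did not move one way. Of 25 listed, 21 were measured, and 4 were called higher and 2 lower in controls. Fshr, the FSH receptor, rose by 2.25 (SE 0.53, adjusted p = 0.00846), and Nr5a2, a nuclear receptor of granulosa cells, by 1.07 (SE 0.30, adjusted p = 0.0188). The mean log2 signal of Fshr at 12 h was 3.9 in controls, below the filter of 4.18, and 4.223 with AMH, near it. Fshr passed the filter through its 24 h groups (6.15 and 6.8). Its calls in both arms are therefore given as a description only. Crem, the cAMP-responsive element modulator, fell by 1.49 (SE 0.25, adjusted p = 0.000768), and the immediate-early gene Egr1 by 1.01 (SE 0.21, adjusted p = 0.00314). With AMH 4 were called higher and 1 lower. Inhba, the activin beta A subunit, rose by 2.17 (SE 0.29, adjusted p = 0.000453), Fshr by 2.58 (SE 0.53, adjusted p = 0.00773) and Irs1, an insulin receptor substrate, by 0.84 (SE 0.24, adjusted p = 0.0431). Hsd17b1, which reduces estrone to estradiol, rose by 1.64 (SE 0.49) in both arms (adjusted p = 0.0269 and 0.0474). Inha, the inhibin alpha subunit, was the fourth called higher in controls (1.01, SE 0.29, adjusted p = 0.0214), and Egr1 fell with AMH too (-0.69, SE 0.21, adjusted p = 0.0475). The list medians were 0.58 and 0.66.

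The granulosa cell list moved beside these members. Of its 14 measured genes 8 were called higher at 24 h in controls and 5 with AMH, 0 lower, with medians of 1.01 and 0.89. These counts include Fshr in both arms and Ihh with AMH, which passed the filter through their 24 h groups. Their mean log2 signals at 12 h lay below it, at 3.9 for Fshr in controls and 3.835 for Ihh with AMH. Foxl2, the transcription factor that keeps granulosa identity, rose by 1.10 (SE 0.13, adjusted p = 0.0001) in controls and 1.04 (SE 0.13, adjusted p = 0.000324) with AMH. Amhr2, the AMH receptor, rose by 1.01 (SE 0.23, adjusted p = 0.00698) in controls. In the AMH arm its change was 0.59 (SE 0.23, adjusted p = 0.1275) and did not pass. The gene Amh, also listed, went the other way without a call in the AMH arm (-1.56, SE 0.47, adjusted p = 0.052). Its mean log2 signal was 4.925 and 3.849 in controls at 12 h and 24 h, the latter below the filter. The list mean ran from 7.56 to 8.56 in controls at 12 h and from 8.60 to 9.34 at 24 h, without overlap. With AMH it ran from 7.78 to 8.62 and from 8.63 to 9.78. Stroma and smooth muscle genes were called higher for 5 of 10 in controls and 2 with AMH, led by Dcn (1.42, SE 0.24, adjusted p = 0.001). Theca genes were called higher for 2 of 6 in each arm. Those with AMH included Cyp17a1, whose mean log2 signal with AMH at 12 h, 3.691, lay below the filter. Surface epithelium genes were called lower for 3 and 2 of 10, immune genes for 3 and 1 of 9 and endothelial genes for 1 and 0 of 11, while no oocyte gene of 23 was called (medians -0.23 and -0.17). The part of these cell types in the members' changes was not tested.

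Over the 16 arrays, which share pools and follicle make-up, the members fell into groups by their correlation with the granulosa list mean. Pearson's r was 0.935 for Nap1l5, 0.91 for Prkar2b, 0.801 for Slc18a2 and 0.748 for Akap7. Within groups, after the group means were taken out, it was 0.867 and 0.838 for Nap1l5 and Prkar2b, and 0.518 and 0.209 for Slc18a2 and Akap7. For Gatm and Sgk1 r with the granulosa list was -0.149 and 0.056, for Grb14 0.409 and for Snap25 -0.57. Over all arrays r was thus 0.748 or more for 4 of the 8 tested genes and 0.409 or less for the other 4. Within groups, Slc18a2 correlated more strongly, and inversely, with the endothelial (-0.67), immune (-0.60) and surface epithelium (-0.589) lists than with the granulosa list. For Akap7, r within groups was larger in size than 0.209 for the theca (-0.564), oocyte (0.375) and neuronal (0.431) lists. The same held for the surface epithelium (-0.297), endothelial (-0.288) and stroma and smooth muscle (-0.22) lists. Nap1l5 and Prkar2b also ran opposite to the immune list within groups (-0.763 and -0.688). Gatm followed the oocyte list mean (r 0.631; 0.625 within groups), and Sgk1 ran opposite to it (r -0.668; -0.737 within groups). Whole follicles were not sorted, so the cell type that held each transcript was not measured.

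**Figure D4:**
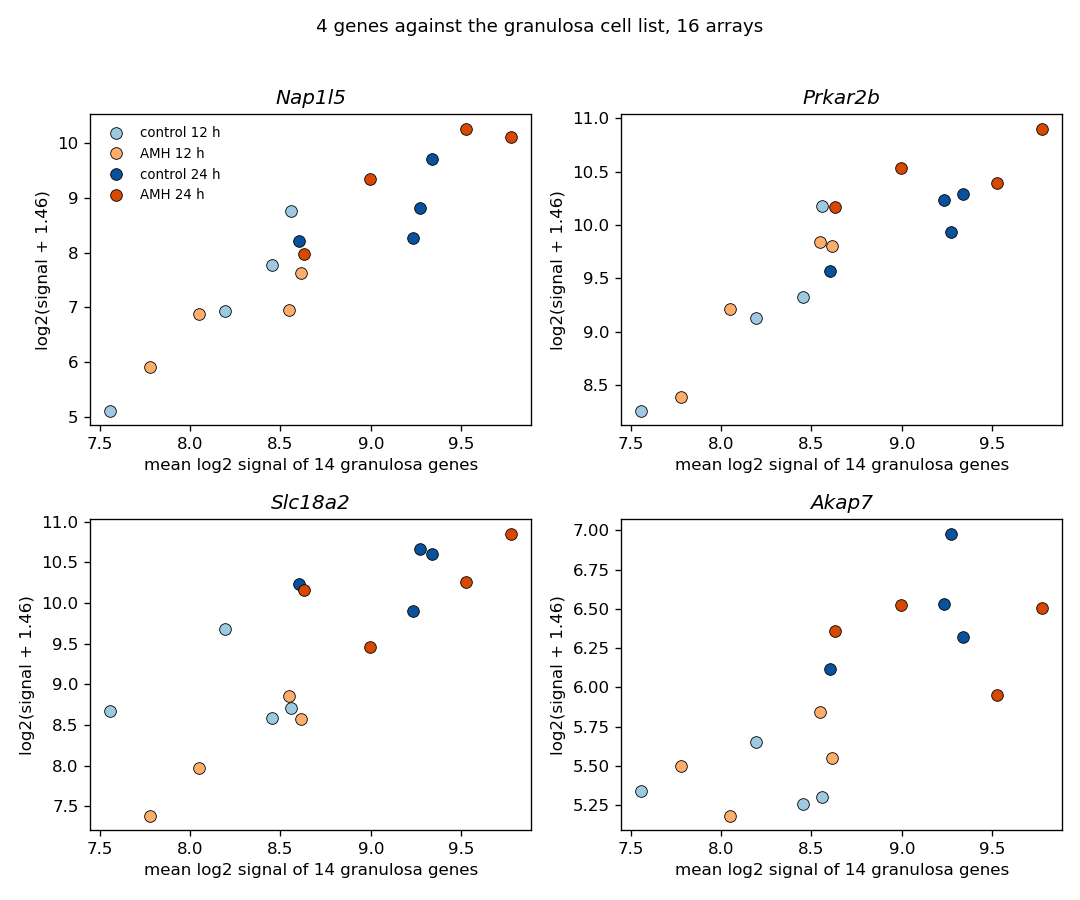
Log2(signal + 1.46) of Nap1l5, Prkar2b, Slc18a2 and Akap7 against the mean log2 signal of 14 granulosa genes, 1 point per array and 16 in each panel, coloured by group. Nap1l5 (r 0.935) and Prkar2b (r 0.91) follow the list within groups too, while Slc18a2 and Akap7 mainly split by time.

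Nap1l5 and Prkar2b shared a pattern. Their r with each other was 0.911 over 16 arrays (Spearman's rho 0.924), 0.832 without the 2 arrays farthest from the median, 0.898 over the 8 arrays at 12 h and 0.694 over the 8 at 24 h. Hsd17b1 was the most alike of 12171 genes for both (r 0.946 with Nap1l5, 0.953 with Prkar2b). The next most alike were Fam13a (0.928) for Nap1l5 and Igf1r (0.951), the IGF1 receptor, for Prkar2b. Slc18a2 was most like Esr2 (0.904), the estrogen receptor beta of granulosa cells, and Phactr2 (0.898), and Akap7 most like Ppp1r26 (0.946) and Pbld2 (0.935). Slc18a2 and Akap7 correlated at 0.814 over all arrays but at 0.392 within 12 h and 0.132 within 24 h, so their likeness lay mostly between the times.

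Snap25 encodes a SNARE protein of the plasma membrane that fuses secretory vesicles. Its mean log2 signal over all arrays, 4.19, passed the filter of 4.18 only through control 12 h (5.2 ± 0.35, SD, n = 4). The means of AMH 12 h (4.06), control 24 h (3.80) and AMH 24 h (3.71) all lay below the filter. In controls at 12 h it was 48.2, 27.7, 38.5 and 29.8, and with AMH at 12 h it was 10.2, 11.7, 18.2 and 24.3. At 24 h it was 8.81, 6.19, 20.8 and 20.1 in controls and 12.1, 7.92, 9.31 and 20.3 with AMH. The 12 h controls lay above every array of the other 3 groups. The difference in controls was -1.40 (SE 0.39, interval -2.22 to -0.57, adjusted p = 0.0205), set against a group below the filter and so no support for a fall. With AMH the difference was -0.35 (SE 0.39, adjusted p = 0.652). The control call ended without control 12 h replicate 1 and without control 24 h replicate 1 or 2 (adjusted p 0.057, 0.0594 and 0.0643). The second Snap25 probe set, just below the filter, correlated with the first at 0.66 and changed by -0.57 (SE 0.45, adjusted p = 0.50, every probe set fitted) in controls. Its single arrays at 12 h in controls, between 11.3 and 41.4, overlapped all other groups.

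Of 24 SNARE and exocytosis genes 21 were measured. In controls 2 were called higher and 1, Snap25, lower, beside 9.96% and 9.19% of all genes. With AMH 1 was called higher and 0 lower, beside 4.34% and 3.94% of all genes. Syt7, a calcium sensor of exocytosis, rose by 1.50 (SE 0.43, adjusted p = 0.0233) in controls and 1.62 (SE 0.43, adjusted p = 0.029) with AMH, and Vamp4, a vesicle SNARE, by 0.82 (SE 0.20, adjusted p = 0.00963) in controls. Of 14 genes of monoamine handling only 5 were measured. Among them, beside Slc18a2, Maoa, which breaks down monoamines, rose by 0.72 (SE 0.22, adjusted p = 0.0329) in controls. The monoamine synthesis genes Th, Ddc, Dbh and Tph1 did not pass the filter. Snap25 was most like Ufd1 (r 0.869) and Sh3bgrl2 (0.847).

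Grb14 encodes an adaptor that binds the insulin receptor and dampens its signal. Its signal in controls was 152, 99.5, 120 and 119 at 12 h and 854, 977, 229 and 191 at 24 h. With AMH the values were 1083, 155, 132 and 169 at 12 h and 346, 998, 418 and 1198 at 24 h. All 24 h controls lay above the 12 h controls, and AMH 12 h replicate 1 stood far above the other 3 arrays of its group. The difference was 1.84 (SE 0.64, interval 0.49 to 3.19, adjusted p = 0.0532) in controls and 1.38 (SE 0.64, interval 0.03 to 2.73, adjusted p = 0.20) with AMH. Neither passed. The control value passed when control 24 h replicate 3 or 4 was left out (adjusted p 0.0464 and 0.0288) and in a fit of these 8 arrays alone (0.032). Under AMH it was 2.08 and passed (adjusted p = 0.0274) without AMH 12 h replicate 1. In all, the AMH-arm change passed in 2 of 18 alternatives, with a lowest adjusted p of 0.0209.

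The second Grb14 probe set, below the filter, followed the first (r 0.958). Grb14 was most like Mamdc2 (r 0.94) and Olfml2b (0.912). Of 12 genes of the GRB7 family and insulin receptor signalling 10 were measured, of which Pik3r1, the regulatory subunit of PI3 kinase, rose by 0.89 (SE 0.28, adjusted p = 0.0356) in controls and Irs1 rose with AMH (0.84, given above).

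Sgk1 encodes a serum- and glucocorticoid-regulated kinase that FSH is known to induce in granulosa cells. Its signal in controls was 1816, 1237, 1070 and 1847 at 12 h and 2741, 2907, 1901 and 1111 at 24 h. With AMH it was 1383, 2099, 970 and 1330 at 12 h and 676, 2246, 1423 and 1925 at 24 h. The groups overlapped in every comparison. The differences with time were 0.48 (SE 0.36, adjusted p = 0.377) in controls and 0.04 (SE 0.36, adjusted p = 0.968) with AMH. The lowest 24 h value of each arm, 676 in AMH replicate 1 and 1111 in control replicate 4, came from the 2 arrays with the highest oocyte list means at 24 h (8.57 and 8.68). Their part in the result was not tested beyond the oocyte covariate, under which no Sgk1 change was called. Of 15 SGK kinases and partners 13 were measured, and Foxo3 (0.46, SE 0.12, adjusted p = 0.0169) and the ubiquitin ligase Nedd4 (0.33, SE 0.11, adjusted p = 0.0369) rose in controls. Sgk1 was most like H2-Q10 (r 0.933) and Ndufa4l2 (0.921).

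Gatm encodes the enzyme of the first step of creatine synthesis. Its signal in controls was 306, 282, 375 and 293 at 12 h and 293, 154, 267 and 494 at 24 h. The AMH arm gave 247, 196, 344 and 255 at 12 h and 308, 215, 306 and 210 at 24 h. The groups overlapped, and the differences with time were -0.16 (SE 0.27, adjusted p = 0.706) and 0.00 (SE 0.27). Gamt, which catalyses the second step, rose by 1.57 (SE 0.20, adjusted p = 0.000143) in controls and 1.25 (SE 0.20, adjusted p = 0.00155) with AMH. Gamt signals were 183 to 385 in controls at 12 h and 637 to 1058 at 24 h, without overlap. It was the 1 gene called among 4 measured of 7 creatine genes. Gatm was most like E2f5 (r 0.900) and Bms1 (0.871). Among 8 measured of 9 NAP1 family genes, the founding member Nap1l1 fell by 0.50 (SE 0.17, adjusted p = 0.0481) in controls, while Nap1l5 was the 1 called with AMH.

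Epha5 encodes a receptor tyrosine kinase that binds ephrins on neighbouring cells. The signal of its brightest probe set was 9.99, 11.4, 7.54 and 10.6 in controls at 12 h and 7.94, 8.73, 9.69 and 6.13 with AMH. At 24 h it was 11.9, 4.21, 11.7 and 7.69 in controls and 7.86, 8.38, 14.7 and 18.2 with AMH. The 4 probe sets had mean signals of 2.02 to 9.79 and correlated with each other at -0.0923 to 0.308, so no common pattern was read from them. In the fit with no filter, the time differences were -0.20 (SE 0.34, adjusted p = 0.765) and 0.46 (SE 0.34, adjusted p = 0.541), and the AMH changes -0.25 (SE 0.35) at 12 h and 0.42 (SE 0.35) at 24 h. Of 21 Eph receptors and ephrins 14 were measured. In controls the ephrin Efnb1 rose by 0.94 (SE 0.20, adjusted p = 0.00492), the ephrin Efna1 fell by 1.18 (SE 0.18, adjusted p = 0.000557) and the receptor Epha2 fell by 1.35 (SE 0.39, adjusted p = 0.0243). With AMH 0 were called.

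The effect of AMH was compared within 4 pairs at each time. At 12 h, 0% of the 12172 genes were called higher and 0% lower, and at 24 h 0.0164% (Dpt and Spon1, 2 genes of no list here) were called higher and 0% lower. For the difference between both effects the shares were 0% and 0%. The number of genes at an unadjusted p under 0.05 was 788 at 12 h, 496 at 24 h and 687 for the difference. Against that background 0 of the 8 tested members were called in any of the 3, with adjusted p from 0.561 to 0.993 at 12 h, 1 at 24 h and 0.882 to 0.98 for the difference. The median change of the 8 was -0.17 at 12 h and -0.10 at 24 h, beside 0.01 and 0.01 over all genes. Centring on the array median shifted the median of all genes by 0.12 at 24 h and ended or made no call of a member.

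Slc18a2 and Snap25 had the smallest unadjusted p at 12 h. Slc18a2 was lower with AMH in 4 of 4 pairs, with differences of -0.82, -0.13, -1.29 and -0.61, and its change was -0.71 (SE 0.20, interval -1.17 to -0.26, adjusted p = 0.561). Its groups overlapped. Snap25 differed by -1.13 (SE 0.35, interval -1.91 to -0.35, adjusted p = 0.605), below 0 in 4 of 4 pairs and without overlap of the groups, which was so for 2.61% of all genes. It was tested only because control 12 h lifted its mean over the filter, so nothing is read from its pairs or its lack of overlap. At 24 h the changes were -0.17 (SE 0.20) for Slc18a2 and -0.09 (SE 0.35) for Snap25, the latter above 0 under median centring (0.03) and quantile normalization (0.09). The test of the difference between times gave 0.55 (SE 0.29, adjusted p = 0.90) and 1.05 (SE 0.50, adjusted p = 0.882).

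Prkar2b was higher with AMH in 4 of 4 pairs at 24 h, by 1.33, 0.30, 0.11 and 0.23, and its change was 0.49 (SE 0.21, interval 0.03 to 0.95, adjusted p = 1). These values are of the brightest probe set, whose groups overlapped. The 2 others, fitted with every probe set, changed by 0.57 (SE 0.18, adjusted p = 0.875) and 0.59 (SE 0.19, adjusted p = 0.885). Groups of the first of these did not overlap (AMH from 10.25, controls up to 10.15), which was so for 2.05% of all genes tested. At 12 h the change of the brightest Prkar2b probe set was 0.09 (SE 0.21), with 2 of 4 pairs above 0. Nap1l5 changed by 0.67 (SE 0.40, interval -0.20 to 1.55) at 24 h, above 0 in 3 of 4 pairs, and by -0.30 (SE 0.40) at 12 h. Grb14 was higher in 4 of 4 pairs at 12 h, with a change of 1.02 (SE 0.55, interval -0.19 to 2.24, adjusted p = 0.80). Without the pair of replicate 1 it was 0.42. At 24 h it was 0.56 (SE 0.55), with single pairs from -1.30 to 2.64.

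Akap7 differed by 0.13 (SE 0.20, interval -0.31 to 0.57) at 12 h and -0.15 (SE 0.20, interval -0.59 to 0.28) at 24 h. Gatm was lower with AMH in 4 of 4 pairs at 12 h, with a change of -0.29 (SE 0.23, interval -0.79 to 0.22). At 24 h it was -0.12 (SE 0.23), with 3 of 4 pairs above 0 and replicate 4 at -1.23. Sgk1 changed by -0.06 (SE 0.35) at 12 h and -0.50 (SE 0.35, interval -1.27 to 0.26) at 24 h, where replicate 1 alone gave -2.02. Without that pair the 24 h value of Sgk1 was 0.00. At 24 h the paired arrays of replicates 1 and 4 deviated from their group means in opposite ways over all genes (r -0.437 and -0.287). Their oocyte list means were 7.61 in control and 8.57 with AMH in replicate 1, and 8.68 and 7.26 in replicate 4. The part of this in the single pair differences was not tested. A p that misses the threshold does not show that the arms were alike, and the 24 h intervals of Grb14 (-0.65 to 1.77) and Snap25 (-0.87 to 0.69) were wide.

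**Figure D5:**
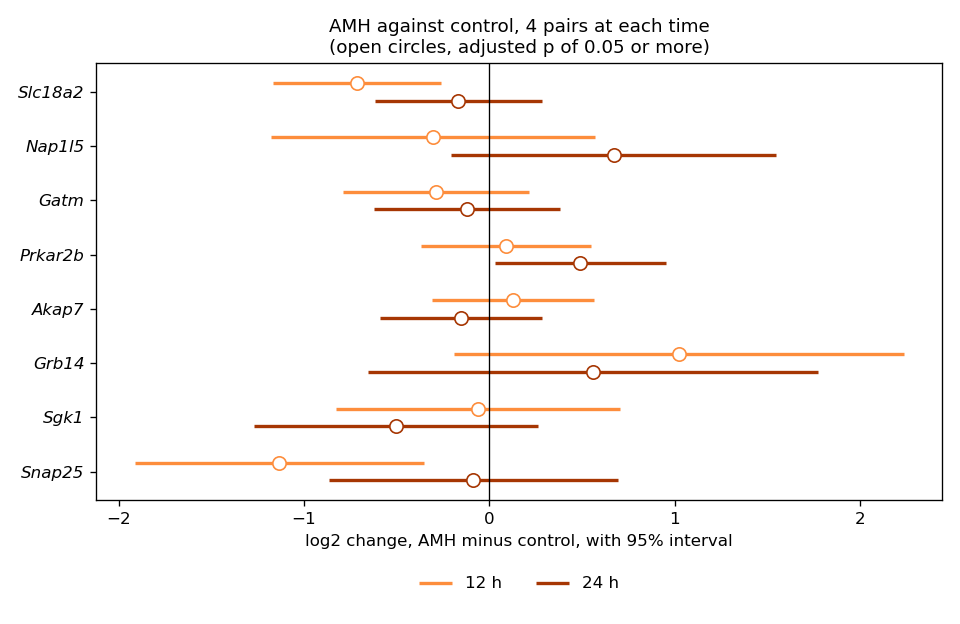
Log2 change with AMH against control at 12 h and at 24 h in the 8 tested genes, with the 95% interval from the paired fit; all circles are open because no change passed an adjusted p of 0.05. The intervals of Slc18a2 and Snap25 at 12 h and of Prkar2b at 24 h lie off 0. Snap25 had passed the filter only through control 12 h, so nothing is read from its interval.

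In all gene lists given here, 0 genes were called with AMH at 12 h or at 24 h. The PKA list, for example, had 8 of 8 measured genes not called at either time, with medians of 0.04 and 0.18, and the FSH-induced list 21 of 21, with medians of 0.02 and 0.09. Lists of other cell types had larger medians, again with 0 genes called. At 24 h the immune list had a median change of 0.69 with AMH (0.06 at 12 h), the stroma and smooth muscle list 0.37 (0.38 at 12 h), the endothelial list 0.30 (-0.41 at 12 h) and the theca list 0.18 (0.10 at 12 h). The granulosa list had medians of 0.10 and 0.04 and the oocyte list -0.12 and -0.16 at 12 h and 24 h. The part of these cell types in the members' AMH changes was not tested. The difference between the 24 h and 12 h effects of AMH is also the difference between the time changes of both arms. It did not pass for any member, so the members called in one arm alone (Nap1l5 and Prkar2b with AMH) were not shown to differ between arms. For Prkar2b this holds for the brightest probe set, while its other probe sets passed in both arms when every probe set was fitted.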

How the data were processed

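RNA of 16 samples was amplified from 5 ng, labelled with biotin and hybridised to 16 Affymetrix mouse arrays, per the labels' protocols. The authors deposited 1 linear signal intensity for each probe set and array, from MAS5 according to the submitters' processing notes (version not given in these sources). All arrays shared a trimmed mean of 150 (2% trimmed at each end), and median signals were 27.8 to 40.2. Detection calls were not analysed here.

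From these, log2(signal + 1.46) was computed, with the 10th percentile of all values as the offset, which understates changes of low genes. Of 45101 probe sets, 64 controls were left out, 34945 had 1 gene symbol in the annotation supplied, 932 several and 9160 none. Symbols were checked against RefSeq by Entrez ID (34741 matched, 0 changed). Probe sets with a mean below the 40th percentile (log2 4.18) were dropped, and each gene was represented by its brightest probe set on average. Models were fitted to all 16 arrays with limma 3.58.1 (moderated along the mean signal) in R 4.3.3, with Benjamini-Hochberg adjustment over 12172 genes and a threshold of 0.05, and tested on simulated data. AMH comparisons had the 8 pairs as a block, as the labels describe; paired arrays' deviations from group means correlated at 0.299, 0.349, 0.56 and 0.214 at 12 h and -0.437, 0.327, 0.2 and -0.287 at 24 h. Time comparisons used 4 group means. Where nothing says that pools were separate for each replicate, p-values measure the spread between these samples, which may be technical.

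Named by rule are all members, the 2 genes most correlated with each and the first 3 markers of a cell type. Up to 4 called genes per list, those with the smallest p, are named by rule too. The gene Amh, Ihh, Cyp17a1, Prkar1a, Inha in controls, Egr1 with AMH, Dpt, Spon1 and the uncalled monoamine genes were chosen after their values were seen. The members and lists were chosen with earlier results of these data known. Alternatives were other offsets, filters, scalings, probe set rules, blocks and covariates and each replicate left out; leaving out both AMH arrays of replicate number 1 was chosen after seeing the data. Plots were made in Python 3.11.15 (matplotlib 3.10.9).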

Additional observations from a re-analysis of the deposited data

Results flagged for a closer look

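Of 36 groups of 4 arrays checked for a value far from the others, 2 were singled out, where chance gives about 1 in 20, or 1.8. The log2 signal of Slc18a2 in control 12 h replicate 1 was 9.68, above the other 3 arrays at 8.58 to 8.71, a gap of 0.883 of the range. Without that array the rise of Slc18a2 in controls still passed. The log2 signal of Grb14 in AMH 12 h replicate 1 was 10.08, above the other 3 at 7.06 to 7.41, also a gap of 0.883 of the range. The second Grb14 probe set was high in the same array, at a signal of 96.6 against 3.37 to 7.16 in the other 3.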

How the results depend on the processing

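The rise of Slc18a2 was called in 17 of 17 alternatives in controls and 18 of 18 with AMH, and that of Akap7 in 16 of 16 and 10 of 17. Snap25 in controls, which passed the filter only through its high group, was called in 13 of 16, from which no stability is read. Nap1l5 with AMH was called in 14 of 18 and Prkar2b with AMH in 9 of 18, and all of these kept their direction. All 72 group levels under 2 other scalings stayed within 1 SD. No member was called for AMH under any alternative run. Low signal limits Snap25 and Epha5.

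Members called in controls fell from 3 to 1 with a filter at the 60th percentile, which tests 6 of them, and were 2 to 5 with single arrays left out. With AMH they fell from 4 to 2 under median centring and without both AMH arrays of number 1, and were 1 to 5 with single arrays left out. Genes called with AMH over time fell from 1008 to 564 under median centring, to 668 without both number 1 arrays and to between 516 and 948 without single arrays. For AMH at 12 h, 1 gene was called after quantile normalization and 2 with the oocyte mean as a covariate; for the difference 1 and 2, and 0 to 1 without single pairs. For AMH at 24 h the 2 calls became 0 with no filter, quantile normalization, the mean over probe sets or no replicate block, and 0 to 1 without single pairs. A replicate block changed no other member's call over time than that of Grb14 in controls (adjusted p = 0.0459); number pairs of 12 h and 24 h are not stated to share pools.

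Values that were not called changed sign as follows; the cause was not tested. For AMH at 24 h, Snap25 was 0.094 after quantile normalization and 0.030 after centring, and Gatm 0.34 without pairs 1 and 4. With AMH over time, Gatm was -0.021, -0.028 and -0.11 after quantile normalization, centring and without both number 1 arrays, and Sgk1 -0.087 with the oocyte covariate. Without single pairs at 12 h, AMH changes spanned -0.12 to 0.24 for Prkar2b and -0.34 to 0.076 for Sgk1. At 24 h they spanned -0.32 to 0.25 for Gatm, -0.13 to 1.18 for Grb14, -0.94 to 0.0011 for Sgk1, -0.25 to 0.23 for Snap25 and -0.33 to 0.0032 for Akap7. The differences spanned -0.035 to 0.53 for Gatm, -1.16 to 0.16 for Grb14 and -0.87 to 0.062 for Sgk1. Over time without single arrays, Gatm spanned -0.44 to 0.12 in controls and -0.13 to 0.14 with AMH, and Sgk1 -0.18 to 0.40 with AMH.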
